A study of Mus musculus with 9 samples.

Results

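Olfactory sensory neurons (OSNs) turn an odor into a current with a short chain of proteins in their cilia, and the mRNAs of 10 genes of that chain are described here. They are Gnal, Gng13 and Ric8b of the G protein step, the adenylyl cyclase Adcy3, the cyclic nucleotide-gated channel subunits Cnga2, Cnga4 and Cngb1, the chloride channel Ano2, the phosphodiesterase Pde1c and the exchanger Slc24a4. The genes were chosen by name for their known roles, and all 10 were found among the 23607 genes of the tables and passed the filter on low counts. The mRNAs came from the olfactory epithelium of 9 C57BL/6 mice by immunoprecipitation with an antibody against phosphorylated ribosomal protein S6 (pS6). Each mouse had been exposed for 1 hr to 100% heptanal, to 1% heptanal or to distilled water as the control, with 3 mice per group. Each group held 1 mouse of postnatal day 22, 1 of day 21 and 1 of day 18. The methods state that mice of a replication were littermates of the same sex. The labels name no litter, so mice of the same day are taken as littermates by inference. No library of RNA taken before the immunoprecipitation was used here, so every level is a level in the precipitate.

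An odorant receptor that binds its ligand activates the olfactory G protein, whose alpha subunit stimulates Adcy3 to make cyclic AMP. Cyclic AMP opens the cyclic nucleotide-gated channel, calcium enters, and calcium opens Ano2, through which chloride leaves the cilium and the cell depolarises further. Pde1c and Slc24a4 help to end the response by degrading cyclic AMP and removing calcium. S6 is phosphorylated in neurons that have been active, so the antibody draws down ribosomes, with their mRNAs, preferentially from active cells.

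Many OSN promoters hold a site for the Olf1/Ebf (O/E) factors, the transcription factors of this lineage, and the members' promoters were read for it. RefSeq windows of 300 bases, from 250 before to 50 after a start site, were at hand for 9 members with 15 start sites. The full O/E core, of 10 letters, was in 0 of the 15 windows and in 0.904% of all 32851 windows. The cyclic AMP response element TGACGTCA was also in 0 of 15, against 1.79% of all. Both are palindromes, so 1 strand covers both. With the first or the last letter of the core left off (CCCNNGGGA or TCCCNNGGG, which every full core includes), 3 of the 15 windows held a match, against 6.56% of all windows. The 30 bases around each are shown because these genes include the only member that passed the test below. The capitals mark the match, the strand is +, and the build is GRCm38.p6.
Gng13, chr17:25717068-25717097: catgtcccacCCCAGGGGAgacctgccaaa
Cnga2, chrX:71991772-71991801: caagggagagTCCCTTGGGgagcttgggag
Ano2, chr6:125711111-125711140: aagggaacacCCCGAGGGAtggaggcaggt
The matches stood at -94 to -86 from the start site in Gng13 and at -67 to -59 in Cnga2 and Ano2. A match in letters is a description and not a measured binding site.

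Libraries held between 5438494 and 9707592 estimated counts, of which the 10 genes made up 0.139% to 0.422%. Their summed counts ran from 11516 to 34830 per mouse, and the lowest single count was 29, for Pde1c. The labelled tissue was borne out by the mature OSN markers Omp, Stoml3, Rtp1, Rtp2 and Gfy, listed as Gm581 in the tables, whose summed level was 4550 to 15591 CPM in the 9 mice. Levels below are counts scaled to library size after TMM (CPM), and fold changes come from 1 edgeR quasi-likelihood fit to all 9 mice with postnatal day as a block. A gene was called where its p-value, adjusted by Benjamini-Hochberg over all 14930 genes tested, was under 0.05.

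In 100% heptanal all 10 transduction mRNAs had a fitted fold change above 0 and stood higher than in the control littermate on each of the 3 days, and 1 of them, Gng13, passed the test. Of all genes tested, 49.8% had a fold change above 0, 18.4% were higher on all 3 days and 0.322% were called. The member median was a log2 fold change of 0.68, beside -0.0022 over all genes. Within a day the member median of the log2 ratio was 0.78 on day 22, 0.35 on day 21 and 0.94 on day 18. At an unadjusted p under 0.05, 7 members were higher, against 6.63% of all genes. These 7 exclude Adcy3, Cnga2 and Pde1c.

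Pooled over days, the groups overlapped for most members. Every 100% mouse lay above every control mouse for Cnga2 and Slc24a4 (2 of 10, against 5.96% of all genes). In bulk tissue, more cells of a type and more RNA per cell cannot be told apart, and in a precipitate neither can be told from more S6 phosphorylation.

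**Figure D1:**
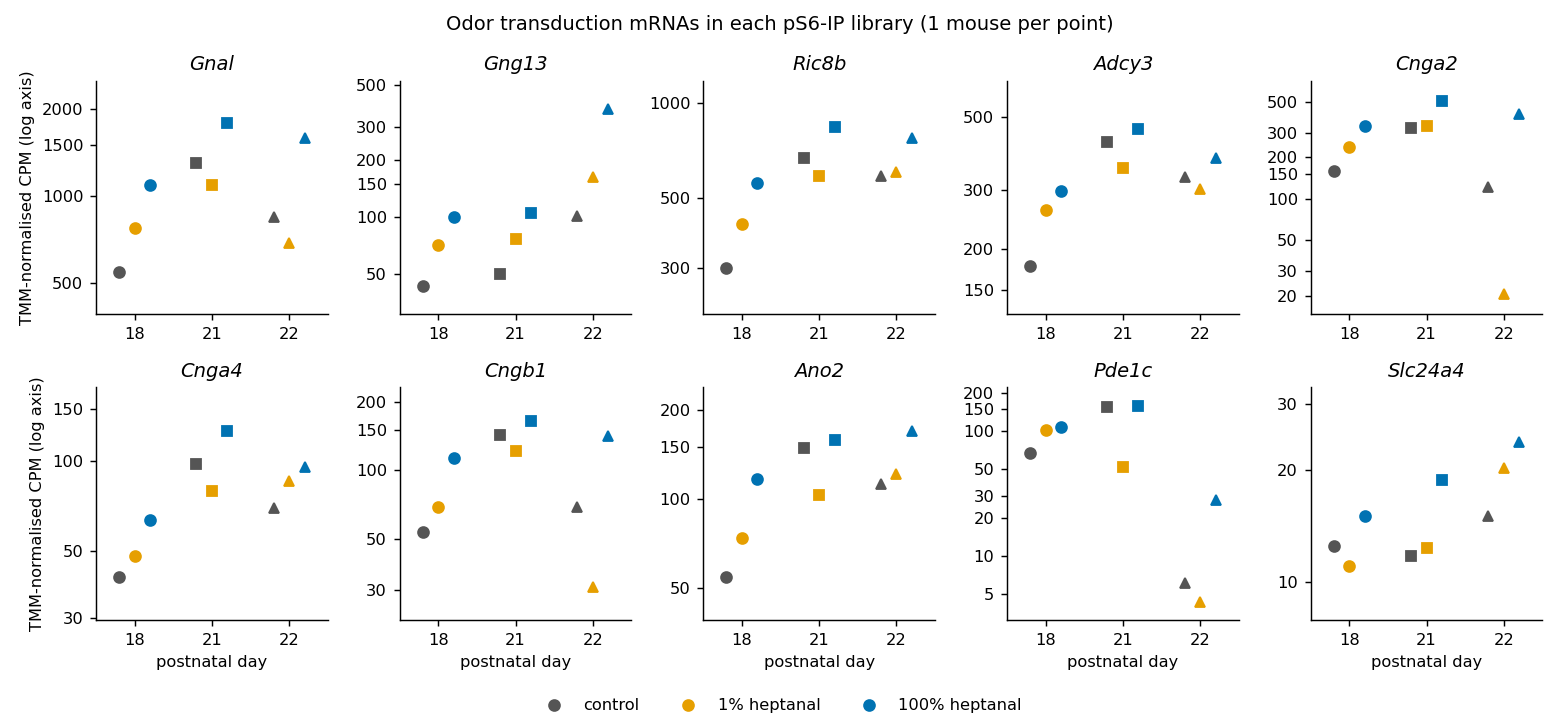
Level of each of the 10 mRNAs in each of the 9 mice, as TMM-normalised CPM on a log axis that is set separately for each gene, against postnatal day; colour gives the exposure and each point is 1 mouse. Within each day the blue point (100% heptanal) is the highest for all 10 genes, while Cnga2 and Pde1c fall to 20.6 and 4.28 CPM in the 1% mouse of day 22.

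Gnal encodes the alpha subunit of the olfactory G protein. Control mice had 848, 1306 and 549 CPM on days 22, 21 and 18, the 1% mice 691, 1096 and 778, and the 100% mice 1584, 1786 and 1094. The 100% mouse was the highest of its day each time, at 1.87, 1.37 and 1.99 times its control, though the day 21 control exceeded the day 18 mouse at 100%. The fitted log2 fold change was 0.78 ± 0.19 (standard error, SE), with an adjusted p of 0.173 in edgeR. Of Gnal counts, 6.02% to 8.03% had been shared out from reads that map to several genes, the highest such share among the 10.

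Gng13 encodes a gamma subunit that partners with it. The control mice held 101, 50.03 and 43.2 CPM, the 1% mice 163, 76.4 and 71.7, and the 100% mice 374, 105 and 100.1. Levels ran in the order control, 1% and 100% in each set of littermates, and the 100% mouse of day 22 stood far above all others. At 100% the log2 fold change was 1.41 ± 0.19 SE, with an adjusted p of 0.0230, which ranked Gng13 as 26 of the 14930 genes by p. That call needs the pairing by day: with no replicate block the log2 fold change was 1.58 and the adjusted p 0.9999. The call was also lost when any 1 control mouse, any 1 mouse at 100% or any 1 day was left out. In those fits adjusted p ran from 0.0589 to 0.275 and log2 fold changes from 1.13 to 1.57. They called 1 to 16 of all genes, and the fit with no block called 2, against 48 in the main fit.

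Gng13 lies at chr17:25717171-25719406 (GRCm38, + strand). Of its exon bases, 51.62% (399 bases) are also exon of Chtf18, a gene of DNA replication on the opposite strand. The kit does not mark strand, so reads of the shared stretch cannot be told apart. Chtf18 had 44.4, 29.3 and 21.1 CPM in the control mice and 140, 46.7 and 45.2 at 100%, and was higher on all 3 days (log2 fold change 1.16 ± 0.21 SE, adjusted p 0.0705). The Gng13 count was 1.71 to 2.67 times the Chtf18 count in the 9 mice. How much of either count belongs to the other gene was not tested.

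Ric8b encodes the exchange factor and chaperone of the Gnal product. Its levels were 587, 670 and 300 CPM in control mice, 605, 587 and 413 at 1%, and 779, 841 and 556 at 100%. The mice of day 18 were the lowest of each group. The 100% mouse led its littermates on every day, by 1.33, 1.25 and 1.86 times over control, and the fitted log2 fold change was 0.53 ± 0.15 SE (adjusted p 0.253).

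Adcy3, the cyclase of the OSN cilium, had the smallest fold change of the 10 at 100%. Its level was 329, 421 and 177 CPM in control mice, 303, 350 and 261 at 1%, and 375, 460 and 299 at 100%. On days 22 and 21 the 100% mouse exceeded its control by only 1.14 and 1.09 times, and on day 18 by 1.68 times. The log2 fold change at 100% was 0.34 ± 0.17 SE (adjusted p 0.536), and 0.13 without the day 18 control or 0.16 without day 18. Its exons share 22.09% of their bases with Cenpo on the opposite strand, whose log2 fold change was 0.32 ± 0.16 SE (adjusted p 0.526).

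Cnga2 encodes the subunit that the olfactory channel needs in order to open to cyclic AMP. Control mice had 121, 327 and 158 CPM and mice at 100% had 410, 506 and 337, so that the lowest 100% value lay just above the highest control value. The 1% mice had 20.6, 335 and 237, and the day 22 mouse among them was the lowest of all 9. The log2 fold change at 100% was 1.27 ± 0.60 SE (adjusted p 0.510). Without the 100% mouse of day 22 it was 0.38, and without day 22 it was 0.84.

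The other two channel subunits are modulatory. Cnga4 had 70.0, 97.7 and 41.1 CPM in control mice, 85.7, 79.7 and 48.1 at 1%, and 95.3, 126 and 63.4 at 100%, with a log2 fold change at 100% of 0.48 ± 0.16 SE (adjusted p 0.353). Cngb1 had 69.4, 143 and 53.7 CPM in control mice, 30.8, 121 and 69.2 at 1%, and 142, 165 and 114 at 100%, with a log2 fold change of 0.79 ± 0.31 SE (adjusted p 0.422), or 0.43 without the 100% mouse of day 22. Like Cnga2, Cngb1 was at its lowest in the 1% mouse of day 22, whereas Cnga4 was not.

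The ratio of the channel subunits was lowest in the 1% mouse of day 22. Per kb of exon, Cnga2 stood at 2.88 to 4.57 times Cnga4 in the 6 mice of days 21 and 18. On day 22 the ratio was 1.49 in the control mouse, 0.207 in the 1% mouse and 3.70 in the 100% mouse. Cngb1 over Cnga4 ran from 0.372 to 0.511 in the 6 mice of the other days, and on day 22 was 0.282 in the control mouse, 0.102 in the 1% mouse and 0.423 in the 100% mouse.

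Ano2, the calcium-activated chloride channel of the cilium, had 112, 148 and 54.5 CPM in control mice, 121, 103 and 73.9 at 1%, and 170, 158 and 116 at 100%. The day 18 control was again the lowest mouse. Its log2 fold change at 100% was 0.57 ± 0.20 SE (adjusted p 0.364), or 0.35 without the day 18 control and 0.34 without day 18, with a ratio to the littermate of 2.13 on day 18 and 1.07 on day 21.

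Pde1c, the calcium-stimulated phosphodiesterase, differed widely between days. Control mice had 6.04, 156 and 66.0 CPM, mice at 1% had 4.28, 51.2 and 101, and mice at 100% had 28.1, 159 and 108. All 3 mice of day 22 were below all 6 others. The log2 fold change at 100% was 0.90 ± 0.50 SE (adjusted p 0.582). It was 0.29 without the 100% mouse of day 22 or without that day, 0.57 without the day 22 control, 1.62 without the day 21 control and 1.55 without day 21, and 2.22, 0.028 and 0.71 within days 22, 21 and 18.

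Slc24a4, the sodium-calcium exchanger that helps to end the response, was the rarest in 5 of the 9 mice per length and the rarest in the mean. Its level was 15.02, 11.7 and 12.5 CPM in control mice, 20.2, 12.3 and 11.02 at 1%, and 23.8, 18.8 and 15.03 at 100%. The groups at 100% and control only just missed each other, at 15.03 against 15.02 CPM. The log2 fold change was 0.53 ± 0.23 SE (adjusted p 0.473).

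In 1% heptanal the same mRNAs showed no common direction. The member median log2 fold change was 0.018, beside -0.014 over all genes, and 5 of 10 fitted values were above 0, as were 48.1% of all genes. Within days, 5, 3 and 9 of the 10 stood above the control littermate on days 22, 21 and 18. Gng13 alone was higher on all 3 days, as were 11.5% of all genes, by 1.61, 1.53 and 1.66 times. Its log2 fold change was 0.68 ± 0.18 SE, with an unadjusted p of 0.00537 and an adjusted p of 0.9997. No member and none of all genes (0%) was called in edgeR, and Gng13 was the only member at an unadjusted p under 0.05 and higher, as were 1.32% of all genes. Over the other 9 members the fitted values ran from -0.44 for Pde1c to 0.11 for Slc24a4.

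Between the concentrations, all 10 mRNAs were higher at 100% than at 1% on each of the 3 days, as were 16.9% of all genes, of which 52.5% had a fold change above 0. The member median was 0.66 on the log2 scale, beside 0.023 over all genes. None of the 10 was called, against 0.0804% of all genes, while 8 were higher at an unadjusted p under 0.05, against 6.74%. DESeq2 called 3 of the 10 here, namely Gnal, Gng13 and Cngb1, and 211 of all 14930 genes. The fitted values ran from 0.29 ± 0.17 SE for Adcy3 to 1.52 ± 0.64 for Cnga2, whose ratio on day 22 alone was 19.9. The Cnga2 value was 0.72 without the 1% mouse of day 22, 0.91 without the 100% mouse of that day and 0.55 without the whole day. That of Adcy3 was 0.19 without the 1% mouse of day 21 and 0.46 without that of day 18. These comparisons share mice: the 3 controls enter both comparisons with water, and each exposed group enters 2 of the 3.

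**Figure D2:**
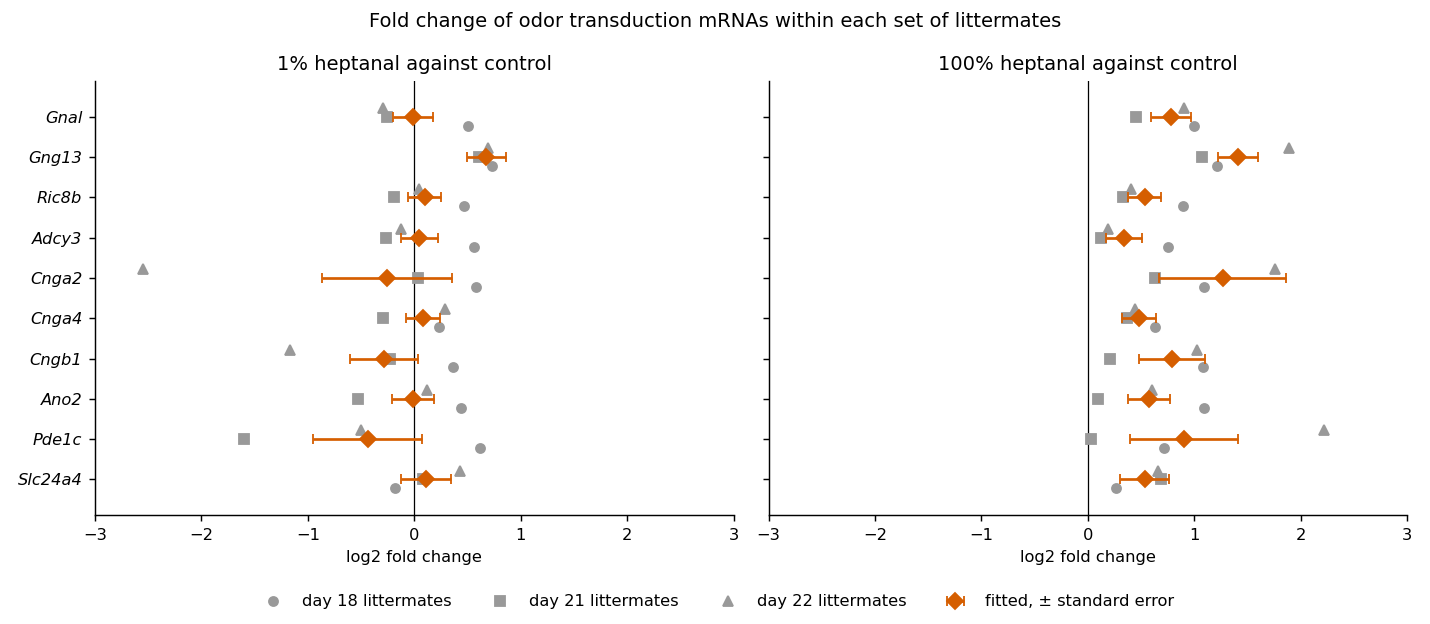
Log2 fold change of each mRNA over the control littermate at 1% heptanal (left) and 100% heptanal (right); grey points are the 3 days, orange diamonds the fitted value with its standard error. At 100% all grey points lie right of 0, between 0.028 and 2.22, whereas at 1% they fall on both sides for all genes but Gng13.

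Levels also differed between the sets of littermates. The F test of postnatal day called 7 of the 10 members, Gnal, Gng13, Ric8b, Adcy3, Cnga4, Ano2 and Pde1c, beside 27% of all genes. Gng13 averaged 213 CPM over the mice of day 22, 77.3 on day 21 and 71.7 on day 18. Pde1c went the other way, with 12.8, 122 and 91.8. Against the mean of the other days, day 22 differed by a log2 fold change of 1.39 for Gng13 (adjusted p 0.000686, where 12.1% of all genes were called higher) and of -3.33 for Pde1c (adjusted p 0.00237, 17.6% called lower). Without day 22, 0 of the 10 were called for day, beside 140 of all 15153 genes then tested. Without the control mouse of day 22, 2 were called, beside 1534 of 15400 genes. Without day 18, 2 were called, beside 2246 of 14947. The fit to all mice called 4038 of 14930 genes. In the sample titles the day 22 libraries carry codes that begin with YJC, and those of days 21 and 18 codes that begin with YJE. What the codes stand for is not stated. Age, litter, sex and any difference in preparation cannot be told apart.

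The libraries of day 22 also stood apart in base composition. The median log2 difference of day 22 was -1.05 for genes under 45% GC and 0.23 for genes over 55% GC. Pde1c has 42.9% GC and Gng13 58.69%, the lowest and the highest of the 10. Genes at a count of 0 numbered 6823 to 7413 in the mice of day 22 and 5992 to 7004 in the others. The 1% mouse of day 21 stood apart from its littermates in the same way, though less: the Spearman correlation between GC content and its deviation from the mean of all mice was 0.102, against -0.312 in the control and -0.370 in the 100% mouse, and it had the 7004 genes at 0. In the comparison of 1% with control, the median of all genes was -0.19 under 45% GC and 0.058 over 55%. The part of base composition in the day differences and in the values at 1% was not tested. With a correction for GC, chosen after seeing the data, the member median at 100% was 0.66, beside 0.68 in the main fit. Single members moved both ways. Gng13 went from 1.41 to 1.45, with an adjusted p of 0.0220 in edgeR, and Pde1c from 0.90 to 0.78.

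**Figure D3:**
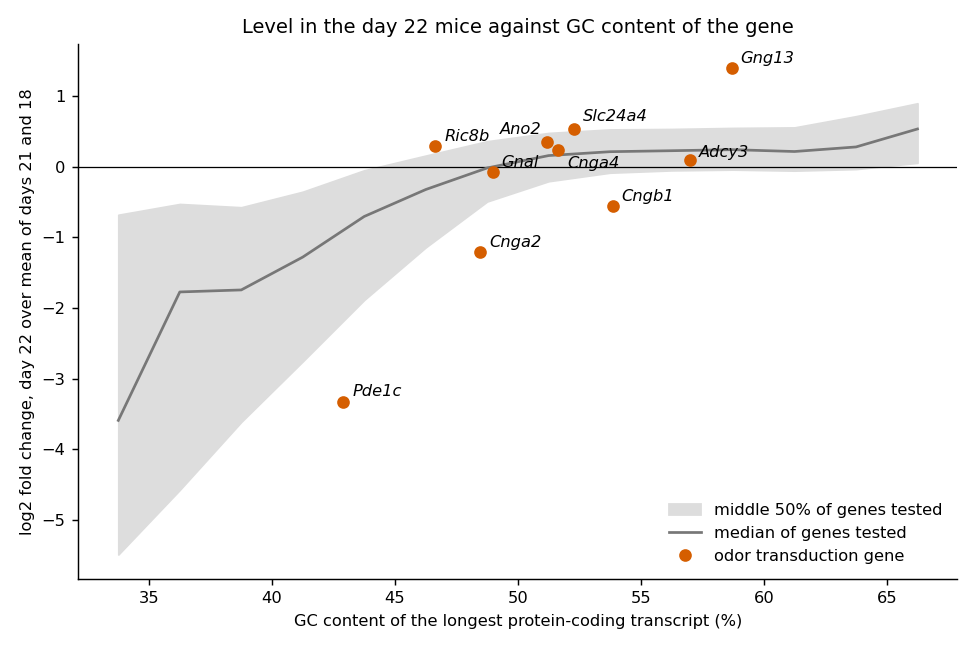
Log2 fold change of the day 22 mice over the mean of days 21 and 18 (vertical) against GC content in percent of the longest protein-coding transcript (horizontal); the line and band give the median and the middle 50% of genes tested in bins of GC, points the 10 transduction genes. Pde1c, at 42.9% GC, lies lowest at -3.33, and Gng13, at 58.69%, highest at 1.39.

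Mature OSN markers outside the 10 also stood higher at 100%. Omp, the olfactory marker protein, rose by a log2 fold change of 1.11 ± 0.16 SE (adjusted p 0.0311) and Stoml3, a membrane protein of the cilium, by 1.22 ± 0.16 (adjusted p 0.0231). Both calls were lost with no replicate block, and when any 1 control mouse, any 1 mouse at 100% or any 1 day was left out. Those fits called 1 to 16 of all genes, against 48 in the main fit. Gm581 had 0.91 ± 0.15 (adjusted p 0.0513), and all 5 markers were higher on all 3 days. Their summed level was 4550 to 8661 CPM in control mice, 6727 to 8762 at 1% and 11350 to 15591 at 100%.

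With each library scaled by these 5 markers in place of TMM, the members no longer stood above the control. The member median at 100% became -0.24, with 8 of 10 below 0 and only Gng13 (0.45 ± 0.32 SE, adjusted p 0.224) and Cnga2 (0.29 ± 0.40 SE) above. None was called, whereas 48.1% of all genes were called lower and 0.402% higher, since this scaling moved the median of all genes to -0.93. Relative to that median, all 10 members remained above. Without Rtp1 among the markers, an alternative chosen after seeing the data, the member median was -0.31 and Adcy3 was called lower at -0.64 (adjusted p 0.0194), where 64.1% of all genes were called lower and all 10 members lay above the median of all genes.

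**Figure D4:**
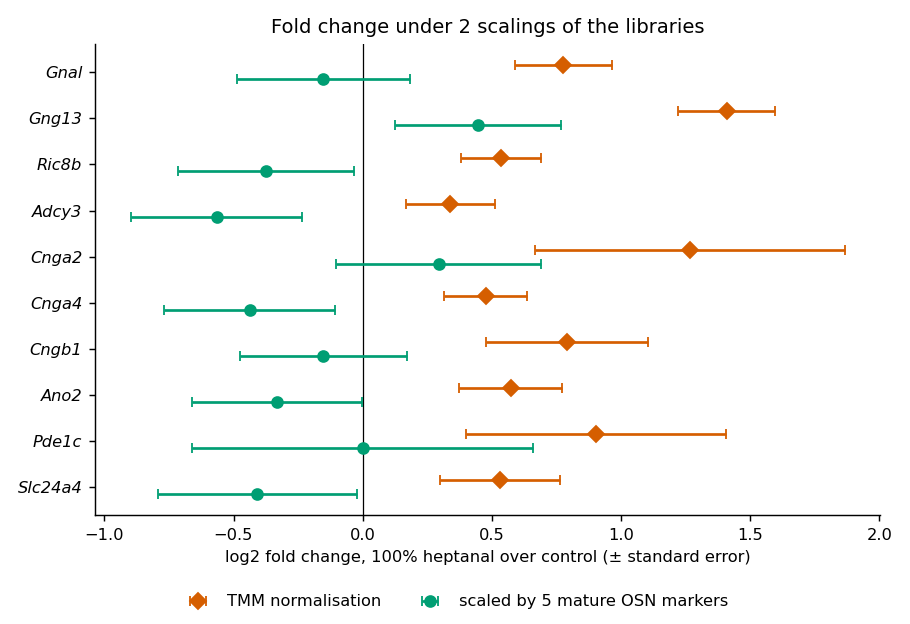
Log2 fold change of each of the 10 mRNAs at 100% heptanal over control, with standard errors, under TMM normalisation (orange) and with libraries scaled by 5 mature OSN markers (green). All 10 orange values lie above 0, and all green values but those of Gng13 (0.45) and Cnga2 (0.29) lie at or below it.

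No marker of another cell type was called at 100%. The 6 sustentacular markers, of the supporting cells, had a median of 0.54 (5 higher on all 3 days) and a summed level of 5077 to 6480 CPM in control mice and 6871 to 8762 at 100%. Red blood cell markers had a median of -0.93, with 3 of 3 lower on all days, and summed to 1078 to 7527 CPM against 645 to 4559. The 7 basal cell markers had a median of -0.52 and summed to 140 to 257 CPM against 92.0 to 159. Medians were 0.28 for 5 immature OSN markers, -0.33 for 4 of Bowman gland, -0.28 for 4 of microvillous cells, 0.084 for 4 of respiratory ciliated cells, -0.26 for 4 of ensheathing glia and -0.30 for 4 of immune cells. No defining marker of these lists failed the filter on low counts. Their part in the member values was not tested.

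Compared per kb of merged exons, the 10 mRNAs spanned a wide range of levels. The cDNA was primed with poly-T, and how evenly reads covered the exons was not tested. All comparisons between genes per kb in this text, also with paralogues, carry that limit. The Gng13 level may also include reads of the exon stretch shared with Chtf18. Gng13 had 156 ± 131 CPM per kb (SD over 9 mice), Ric8b 112 ± 31.6, Gnal 96.8 ± 37.2 and Cnga2 88.0 ± 49.2. These leading 4 changed places between mice: Gng13 exceeded Ric8b in 5 of 9 mice, Ric8b exceeded Gnal in 8, and Gnal exceeded Cnga2 in 4. Adcy3 followed with 52.9 ± 13.5, below Cnga2 in 7 of 9 mice.

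The lower part of the order was steadier. Cnga4 had 29.5 ± 9.93 CPM per kb, Ano2 21.8 ± 7.02, Cngb1 10.8 ± 4.96, Pde1c 3.76 ± 2.94 and Slc24a4 3.45 ± 0.974. From Adcy3 to Pde1c each gene exceeded the next in 9 of 9 mice, although the ranges over mice overlapped. Pde1c and Slc24a4 were not separated, with Pde1c higher in 5 of 9. The order at the top depends on the length used: with the longest transcript the means were 193 for Ric8b, 189 for Gnal and 168 for Gng13.

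The members were also set beside paralogues, genes of the same families that are not the olfactory form. Gnas, the widely used stimulatory alpha subunit, had 75.5 CPM per kb, near Gnal. Gng8, a gamma subunit of immature OSNs, had 21.1, and Ric8 (the symbol here of Ric8a) 21.5. Among the other cyclases tested Adcy6 led with 5.27, well below Adcy3, and Ano1, the epithelial form of the chloride channel, had 18.5. Of 23 paralogues 18 could be tested. Adcy8, Cnga1, Cnga3, Cngb3 and Slc24a1 did not pass the filter. None of the 18 was called at 100%, their median was -0.013, and 1 was higher on all 3 days.

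**Figure D5:**
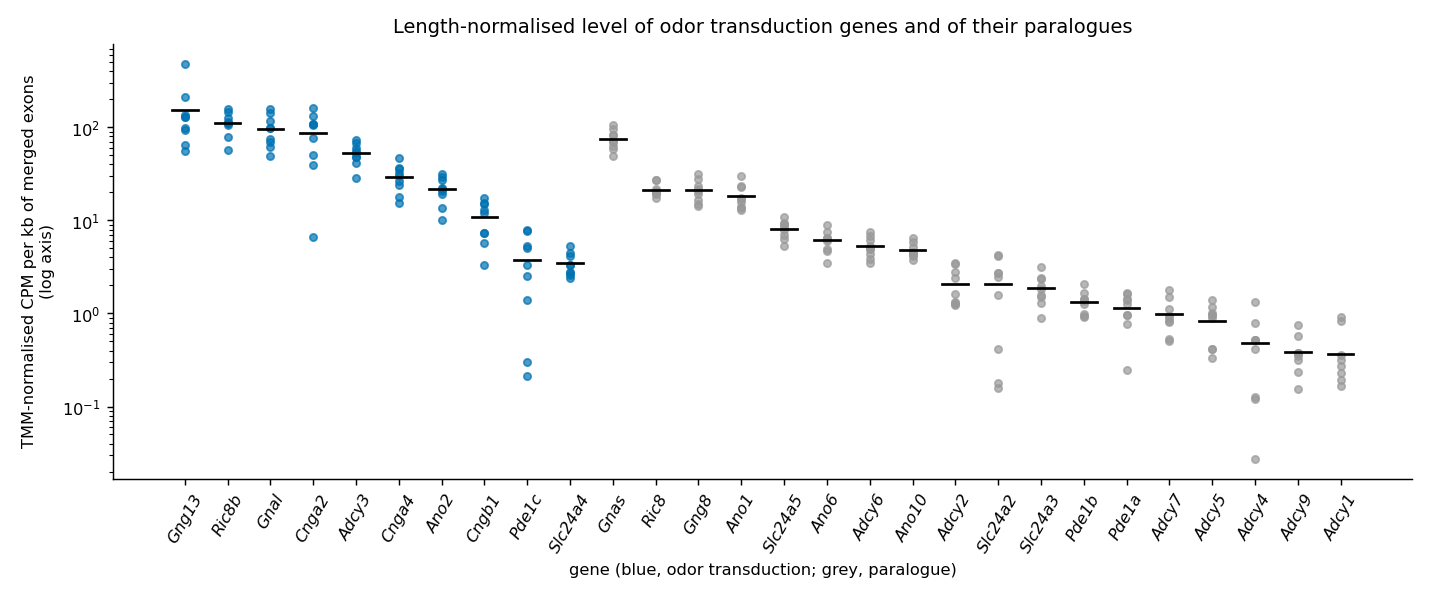
Level per kb of merged exons, in TMM-normalised CPM on a log axis, of the 10 transduction genes (blue) and of the 18 tested paralogues (grey); points are mice (1 mouse at 0 for Adcy1 is not drawn) and bars the mean of 9 mice. Gng13, Ric8b, Gnal and Cnga2 lie highest in blue, with means of 156 to 88.0, and Gnas (75.5) highest in grey.

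The rest of the pathway followed in part. Of 23 further genes of transduction and adaptation 22 could be tested, and these include the 5 mature OSN markers above. The 2 called higher at 100%, with none lower, were Omp and Stoml3, the same calls as given for those markers. No gene of the list outside the markers was called. The median log2 fold change of the 22 was 0.45, beside -0.0022 over all genes, of which 0.322% were called. On all 3 days 16 of the 22 were higher, against 18.4% of all genes. Of 24 genes of ciliary transport, which carry these proteins to the cilium, none was called and the median was 0.10. At an unadjusted p under 0.05, 2 of the 24 were higher and 1 lower. Kif17, a kinesin motor of cilia, had 0.98 ± 0.42 SE (adjusted p 0.467). Arl6, a small GTPase of that transport, had 0.68 ± 0.23 SE (adjusted p 0.357) and Ift172, an intraflagellar transport subunit, -0.45 ± 0.18 (adjusted p 0.432).

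The genes whose pattern was nearest to the mean of the 10 were found by Pearson correlation of log2 CPM over the 9 mice. Those mice share litters and libraries. Olfactory receptor genes and the 10 themselves were left out of the ranking. Serpine2 (r = 0.977), B3gnt2 (0.971), Stom (0.971), Mppe1 (0.968) and Fam179a (0.967) led. With the day means taken away, Mppe1 (0.995), E330020D12Rik (0.988), Tmem50b (0.983), Dmtn (0.982) and Mapk10 (0.978) led. Mppe1 lies opposite Gnal and shares 852 of its exon bases (7.63%), so that its reads and those of Gnal cannot be fully told apart. Among the 10, Gnal lay nearest to the mean over the 9 mice (0.986) and Pde1c farthest (0.269).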

How the data were processed

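The 10 genes and all gene lists were chosen with earlier results of these data known. Per the labels and the methods, RNA bound to pS6 was reverse-transcribed from a poly-T primer, amplified and made into Nextera libraries, which carry no strand, and no molecular identifiers were counted. Alignment was with Bowtie to the mm10 genome and gene counting with BEDTools, versions not given in the sources used here. The deposited tables have no header. From the values and the methods, and not from a label, their column 21 was taken to hold estimated counts, in which the authors shared out reads that map to several genes, and was rounded and used as the main measure. Column 2 was taken in the same way as deposited counts of reads with 1 place in the genome, as an alternative.

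R 4.3.3 and edgeR 4.0.16 gave the main fit (filterByExpr with a minimum count of 10, TMM, quasi-likelihood F test, terms for postnatal day and group), with Benjamini-Hochberg adjustment at 0.05, and DESeq2 1.42.0 an alternative. The SE is the log2 fold change over the square root of F. Day served as a block because mice of a replication were littermates. Deviations from group means correlated in all 9 same-day pairs (mean 0.54, lowest 0.155), against -0.253 over 18 other pairs. Such deviations cancel within a group, so the negative value largely follows from the positive one. No library was a copy of another. The p-values rest on the spread between mice that is left after the terms for day and group, with 3 mice per group. Positions, exon lengths and overlaps came from GENCODE M21 and promoters from RefSeq (GRCm38.p6), and the authors' gene models may differ. The fit was also run on simulated data, in which the planted changes were larger than any fitted member change. That run does not bear on detecting changes of the members' size. The text names the 10 genes, the 5 mature OSN markers and the 5 nearest in pattern by each measure. It also names paralogues, not picked by p, and up to 4 genes of each other list with the lowest p. Gfy and Ric8a were matched as Gm581 and Ric8. Overlaps between genes, and the sentences on them, were added after seeing the data. Alternatives were other tests, scalings, filters and count columns, and leaving out each mouse or day.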

Additional observations from a re-analysis of the deposited data

How the results depend on the processing

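Of the 12 ways of leaving out a mouse or a day, 9 took away the call of Gng13 at 100%, so the count of called members ran from 0 to 1. These 9 fits called 1 to 16 of all genes at 100%, against 48 in the fit as reported. For the other transduction genes the count ran from 0 to 3 (2 called in the fit as reported). For postnatal day it ran from 0 to 8 members (4 without the day 18 control or the day 21 mouse at 100%). Those fits called 140 to 3746 of all genes for day. The member median at 100% ran from 0.55 to 0.89, and that of 100% against 1% from 0.54 to 0.77, with all 10 members above 0 in both. With no replicate block, 0 members and 0 other transduction genes were called at 100%, beside 2 of all 14930 genes. No call was gained in these lists. The likelihood ratio test and DESeq2 each called 2 members at 100% (Gnal with adjusted p of 0.0284 and 0.00899) and 4 other transduction genes. They called 297 and 266 of all 14930 genes there, against 48 in the fit as reported. At 100% against 1% they called 1 and 3 members, beside 226 and 211 of all genes.

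Scaling by the mature OSN markers left 0 members called at 100%, and moved the member medians to -0.24 at 100% and -0.21 at 100% against 1%. It called 4 other transduction genes, 9 ciliary transport genes and 8 paralogues, all lower, as were 48.1% of all genes. The list of other transduction genes holds the 5 markers themselves. Without Rtp1 this scaling called 1 member, Adcy3. It turned the sign at 100% of Gnal (-0.15), Ric8b (-0.37), Adcy3 (-0.57), Cnga4 (-0.44), Cngb1 (-0.15), Ano2 (-0.33), Pde1c (-0.000687) and Slc24a4 (-0.41). At 100% against 1% it turned Gnal (-0.055), Gng13 (-0.15), Ric8b (-0.41), Adcy3 (-0.55), Cnga4 (-0.46), Ano2 (-0.27) and Slc24a4 (-0.45). In this scaling libraries are divided by mRNAs that were themselves higher at 100%.

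At 1%, values near 0 changed sign: Gnal under upper quartile scaling (0.013), library size alone (0.032) and GC correction (0.043), Ano2 under the same 3 (0.014, 0.024 and 0.0034), and Adcy3 with no replicate block (-0.022) and under marker scaling (-0.017). For 1% against control, leaving out a mouse or a day gave -0.28 to 0.15 for Gnal, -0.077 to 0.26 for Ric8b, -0.20 to 0.22 for Adcy3, -0.90 to 0.44 for Cnga2, -0.044 to 0.27 for Cnga4, -0.63 to 0.11 for Cngb1, -0.23 to 0.28 for Ano2, -1.29 to 0.29 for Pde1c and -0.068 to 0.26 for Slc24a4. Counts as low as 29 (Pde1c) and 3 mice per group limit the precision. The GC correction, the longest-transcript length and the shortened O/E motif were chosen after seeing the data.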
